A study of Mus musculus with 19 samples.

Results

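The genes described here are 33 members of the sterol and fatty acid synthesis programme of mouse T helper 2 (Th2) cells, out of 22878 gene symbols in the deposited RNA tables. They were chosen by symbol, and each is represented by its RefSeq transcript with the most reads over all 16 RNA libraries, together with the chromatin peaks that the deposited lists assign to it. By role, 9 members act in the mevalonate and squalene steps, 5 between lanosterol and cholesterol, 4 are the SREBP factors and the proteins that handle them, and 4 are sterol transport genes or targets of the oxysterol receptor LXR. A further 5 supply acetyl-CoA or NADPH or build the fatty acid chain, and 6 elongate or desaturate fatty acids.

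The RNA came from 2 experiments, each with 8 libraries in 4 groups of 2. In the Bcl11b experiment, naive CD4 T cells came from Bcl11b fl/fl-CreERT2 mice, in which 4-hydroxytamoxifen (4-OHT) activates a Cre recombinase that removes the floxed Bcl11b gene, which encodes a zinc-finger factor of the T cell lineage. Early KO cells had 4 days of Th2 culture with 4-OHT, and early WT cells had the same culture without it. Late cells had 4 days of Th2 culture, 1 day of rest in medium with IL-2 and 4 further days of Th2 culture, with 4-OHT in that last period for late KO cells and without it for late WT cells. All of these cells carried the floxed gene and CreERT2, and only KO cells received the drug, so effects of the drug and of the deletion cannot be told apart. In the Gata3 experiment the labels give late KO, late WT, early KO and early WT Th2 cells, where Gata3 encodes the factor that directs Th2 differentiation. The sources used here do not give the mice, the way Gata3 was deleted or the culture of that experiment. Chromatin immunoprecipitation with antibodies to Bcl11b and GATA3, and an input, was done on late WT Th2 cells, with 1 library each. No label says if the 2 libraries of a group are separate cultures or mice; p-values therefore cover only the spread between these libraries, which may be technical.

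Cells make cholesterol from acetyl-CoA through mevalonate, squalene and lanosterol, and they make fatty acids from the same acetyl-CoA through malonyl-CoA. The SREBP transcription factors, encoded by Srebf1 and Srebf2, raise both pathways when membrane sterol is low: SCAP carries their precursors to the Golgi for cleavage, and INSIG proteins hold SCAP back when sterol is plentiful. LXR acts in the opposite situation and raises cholesterol export. T cells that are activated and divide are known to switch this programme on, because new membrane needs both lipids.

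The 8 Bcl11b libraries held 4687552 to 14577958 gene-assigned reads each, and the 8 Gata3 libraries 5117526 to 9892746. In the Bcl11b experiment the early WT pair stood apart: its gene reads were 20.7% and 16.9% of the library total that their RPKM values imply, against 40.7% to 60.3% in the other 14 libraries. Over 1472 odorant and vomeronasal receptor transcripts, which T cells are not known to use, these 2 libraries had 3.73 and 4.82 reads per kb, and no other library had more than 0.502. The late libraries of the Bcl11b experiment, KO and WT alike, differed from all others in another way. They had 45 to 95 reads of Gapdh and 12 to 31 of Ppia, 2 housekeeping genes with many near-identical copies in the genome, against 2292 to 2405 and 2437 to 5644 reads in the early libraries. These genes were picked after their values were seen. In the Gata3 experiment, same-numbered late and early WT libraries differed by a chi-square per degree of freedom of 4.5 and 2.63. The 2 libraries within the late WT group differed by 14.6 and within the early WT group by 13.8, and counting noise alone gives 1, so all libraries were counted separately. All 9 T helper markers, such as Cd3d and Cd4, had reads in all 16 libraries.

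The targeted genes were checked first, in TMM-scaled counts-per-million of gene reads (CPM), with edgeR's quasi-likelihood test and p-values adjusted over all genes tested (threshold 0.05). In the Bcl11b experiment, Bcl11b had 66.5 and 54.2 CPM in early KO cells, against 126 and 128 CPM in early WT cells, a log2 fold change of -1.08 ± 0.28 (SE; adjusted p = 0.0234). It had 75.6 and 137 CPM in late KO cells, against 139.7 and 181 CPM in late WT cells, which did not pass the test (-0.59 ± 0.28, adjusted p = 0.423). In the Gata3 experiment, Gata3 had 425 and 419 CPM in early KO cells, against 1178 and 1279.5 CPM in early WT cells (-1.54 ± 0.11, adjusted p = 3.27e-06). It had 1090.4 and 954 CPM in late KO cells, against 1382 and 1327 CPM in late WT cells (-0.41 ± 0.11, adjusted p = 0.0319). The reads of the targeted genes were lower in all 4 KO groups, while much of each transcript remained, mostly so in late KO cells.

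Of the 33 members, 31 passed the filter on low values among the Bcl11b libraries, 30 among the Gata3 libraries and 29 in both. A gene passed with 1 RPKM or more in 2 or more of an experiment's 8 libraries. Hmgcs1, the enzyme that makes HMG-CoA, is listed at 0 reads in all 16 libraries and was tested in neither. Which reads the authors' counting left out is not known here, so the 0 cannot be read as a lack of expression. Mylip, a ubiquitin ligase induced by LXR, was not tested in the Bcl11b experiment, and Abca1, a cholesterol exporter, and Me1, a malic enzyme that supplies NADPH, were not tested in the Gata3 experiment.

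Levels can be compared between genes only per transcript length. In CPM per kb, Scd2, a fatty acid desaturase, was highest of the members in late KO cells (190.5 and 217) and late WT cells (352 and 347) of the Bcl11b experiment. Acly, the enzyme that splits citrate into acetyl-CoA, was highest there in early KO cells (101 and 92.8) and early WT cells (199 and 179). In the Gata3 experiment Fdps, which makes farnesyl diphosphate, and Scd2 had the 2 highest means in all 4 groups: Fdps had 168 and 109 CPM per kb in early KO cells and 134 and 93.8 in early WT cells, and Scd2 had 123 and 79.8 in early KO cells and 129 and 81.9 in early WT cells, so their ranges overlapped. Apart from Hmgcs1, the members at the low end, Abca1, Mylip, Me1, Acaca and Acss2, had under 10 CPM per kb in every library.

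Promoter sequences are shown for 4 members on which the results below turn: Hmgcs1, whose start carries the strongest Bcl11b peak of any member, Insig1, whose start lies under peaks of both factors, Hsd17b7, the member that fell most in Gata3 KO cells, and Dhcr7, which rose at both stages of that experiment. They are RefSeq sequence on GRCm38.p6, the assembly behind mm10, in the direction of transcription, with positions counted back from the transcription start. Capitals mark matches on either strand to the sterol regulatory element TCACNCCAC bound by SREBPs, the E-box CACGTG, the NF-Y box CCAAT and the Sp1 box GGGCGG. A box on the other strand reads as its reverse complement.
Hmgcs1, chr13:119690201-119690350, plus strand, positions -150 to -1: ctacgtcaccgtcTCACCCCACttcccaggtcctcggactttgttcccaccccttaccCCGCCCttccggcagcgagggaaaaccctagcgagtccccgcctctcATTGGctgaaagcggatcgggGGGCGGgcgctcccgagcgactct
Insig1, chr5:28071262-28071411, plus strand, positions -150 to -1: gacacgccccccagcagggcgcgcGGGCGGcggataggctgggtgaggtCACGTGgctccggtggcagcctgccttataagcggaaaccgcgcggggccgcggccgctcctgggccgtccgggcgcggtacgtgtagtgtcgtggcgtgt
Hsd17b7, chr1:169969243-169969392, minus strand, positions -187 to -38: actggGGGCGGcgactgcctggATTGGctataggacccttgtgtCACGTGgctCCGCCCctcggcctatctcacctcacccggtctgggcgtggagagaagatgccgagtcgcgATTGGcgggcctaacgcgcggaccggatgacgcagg
Dhcr7, chr7:143823017-143823166, plus strand, positions -150 to -1: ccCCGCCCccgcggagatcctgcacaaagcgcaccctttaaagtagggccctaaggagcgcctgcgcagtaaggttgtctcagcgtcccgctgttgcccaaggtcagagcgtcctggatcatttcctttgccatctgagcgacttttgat

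The sterol regulatory element in the Hmgcs1 promoter lies at positions -137 to -129. RefSeq promoters, from 250 bases before to 50 bases after a start, were found for 25 of the 33 members; Fdps, Fdft1, Sqle, Stard4, Abcg1, Scd1, Scd2 and Fads1 had none in the table used. Hmgcs1 was the only one of the 25 with the whole element (4% of members, and 1.44% of 27025 genes). Its last 8 letters, CACNCCAC, were also in Acat2 and Insig1, which makes 3 members (12%, and 7.12% of genes). The NF-Y box was in 19 members (76%, and 41.1% of genes), the Sp1 box in 20 (80%, and 38.2%) and the E-box in 6 (24%, and 8.09%): Hsd17b7, Dhcr7, Scap, Insig1, Abca1 and Elovl5. That of Dhcr7 is in the window of another start, not in the stretch printed. No 2 of the marked matches overlap in the printed stretches, and the shortened element is contained in the whole one. These are matches of letters in a window and were not tested as binding sites.

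In early Gata3 KO cells the post-lanosterol part of sterol synthesis changed in both directions. Hsd17b7 and Nsdhl, which act together in removing methyl groups from lanosterol-derived sterols, fell to about 0.182-fold and 0.469-fold of early WT, while Dhcr7, the enzyme of the last step to cholesterol, rose 2.03-fold. Acat2, Idi1 and Fasn rose 1.43-fold to 1.53-fold, and Srebf2 fell to 0.770-fold. In all, 7 of 30 members passed the test, 4 higher and 3 lower, in a comparison in which 30.7% of all genes tested passed, 14% higher and 16.8% lower. In limma on log2(RPKM + 1) the split was 6 higher and 2 lower, where 3094 of 10601 genes passed. With the replicate number as a block, 20 members passed, 13 higher and 7 lower, where 39.9% of all genes did, 18.6% higher and 21.3% lower. The members' median log2 fold change was 0.28, against 0.00 over all genes, and 20 of the 30 were positive. In bulk RNA, fewer cells of a kind and less RNA per cell cannot be told apart, here or in any comparison below.

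Hsd17b7, a 3-keto-sterol reductase, had 43.2 and 38.1 CPM in early Gata3 KO cells, against 220.0 and 227 CPM in early WT cells (log2 fold change -2.46 ± 0.29, edgeR adjusted p = 0.000302). Nsdhl, the dehydrogenase of the same demethylation, had 50.8 and 35.5 CPM in early KO cells, against 83.2 and 101 CPM in early WT cells (-1.09 ± 0.24, adjusted p = 0.00688). Dhcr7 had 89.0 and 64.4 CPM in early KO cells, against 36.6 and 38.8 CPM in early WT cells (1.02 ± 0.17, adjusted p = 0.00115). For all 3 genes both KO libraries lay on one side of both WT libraries. On mm10, Hsd17b7 lies at chr1:169949535-169969242, Nsdhl at chrX:72918521-72958528 and Dhcr7 at chr7:143823167-143848410. Lss, which closes the ring to lanosterol, and Cyp51, which removes the first methyl group, did not pass (-0.29 ± 0.32 and 0.28 ± 0.16), but both passed with the block (-0.31, adjusted p = 0.0273, and 0.27, adjusted p = 0.0464). Leaving out early KO replicate 2 ended the Nsdhl call (adjusted p = 0.0742), while the Hsd17b7 and Dhcr7 calls held without any one of the 8 libraries.

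Acat2, which joins acetyl-CoA units at the head of the mevalonate pathway, had 195 and 143 CPM in early Gata3 KO cells, against 111 and 109.6 CPM in early WT cells (0.61 ± 0.17, adjusted p = 0.0217). Idi1, the isopentenyl diphosphate isomerase, had 181 and 152 CPM in early KO cells, against 103 and 125 CPM in early WT cells (0.55 ± 0.13, adjusted p = 0.0107). These were the members of the mevalonate and squalene group that passed, 2 of 8 tested, and the group's median was 0.31. Reads of Acat2 may be shared with its paralog Acat3 and the overlapping pseudogene Gm20591, and those of Idi1 with Idi2. The Acat2 call did not hold without early WT replicate 1 (adjusted p = 0.0786), early WT replicate 2 (0.0819) or early KO replicate 1 (0.207), and the Idi1 call without early WT replicate 1 (0.0873) or early KO replicate 1 (0.109).

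Fasn, the fatty acid synthase, had 292 and 239 CPM in early Gata3 KO cells, against 181 and 190.0 CPM in early WT cells (0.52 ± 0.13, adjusted p = 0.0124). Srebf2, the SREBP that acts mainly on sterol genes, had 242 and 208 CPM in early KO cells, against 276 and 309 CPM in early WT cells (-0.38 ± 0.12, adjusted p = 0.0316). Neither gene's groups overlapped. Fasn lies at chr11:120805958-120825166 and Srebf2 at chr15:82147269-82205379. The Fasn call did not hold without early WT replicate 1 (adjusted p = 0.0687) or early KO replicate 1 (0.128), and the Srebf2 call in limma (0.123) or without early WT replicate 2 (0.177) or early KO replicate 2 (0.268). No member among the sterol transport genes or among the elongases and desaturases passed. Mylip came closest, with 12.2 and 11.3 CPM in early KO cells and 5.02 and 3.51 CPM in early WT cells (1.47 ± 0.50, adjusted p = 0.0503). With the block, Mylip (adjusted p = 0.00263), Fads2 (0.87, 0.00078), Abcg1 (0.53, 0.00381) and Stard4 (0.34, 0.0274) passed as higher and Scd1 (-0.66, 0.0123) as lower. The other members that the block added were Pmvk, Mvd, Acly and Fdps, at 0.27 to 0.35, and Insig1 (-0.80, adjusted p = 4.95e-05) and Srebf1 (-0.30, 0.0301).

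Markers of other cells were near 0 in these libraries. The summed level of 5 mast cell and basophil markers was 4.98 to 6.75 CPM in early Gata3 KO cells and 0.376 to 0.678 CPM in early WT cells. Of these, Ms4a2 and Fcer1a had 0 reads in all 8 libraries, while Kit had up to 50 reads in a library and Mcpt8 up to 13. The summed level of 7 macrophage and dendritic cell markers was 6.06 to 7.55 CPM in early KO cells and 4.34 to 6.01 CPM in early WT cells. Adgre1, a further marker of that list, was not among the gene symbols and is in none of these sums. C1qa and C1qb had 0 reads in all 8 libraries, while Cd68 had reads in all 8, up to 109. The 9 T helper markers, Gata3 and its target cytokine genes among them, summed to 3128 to 3165 CPM in early KO cells and 4966 to 5105 CPM in early WT cells. Of the 9, 6 fell and Cd4 rose (0.34 ± 0.10, edgeR adjusted p = 0.0270), where 16.8% of all genes were lower and 14% higher. The part of these measures in the members' changes was not tested.

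**Figure D1:**
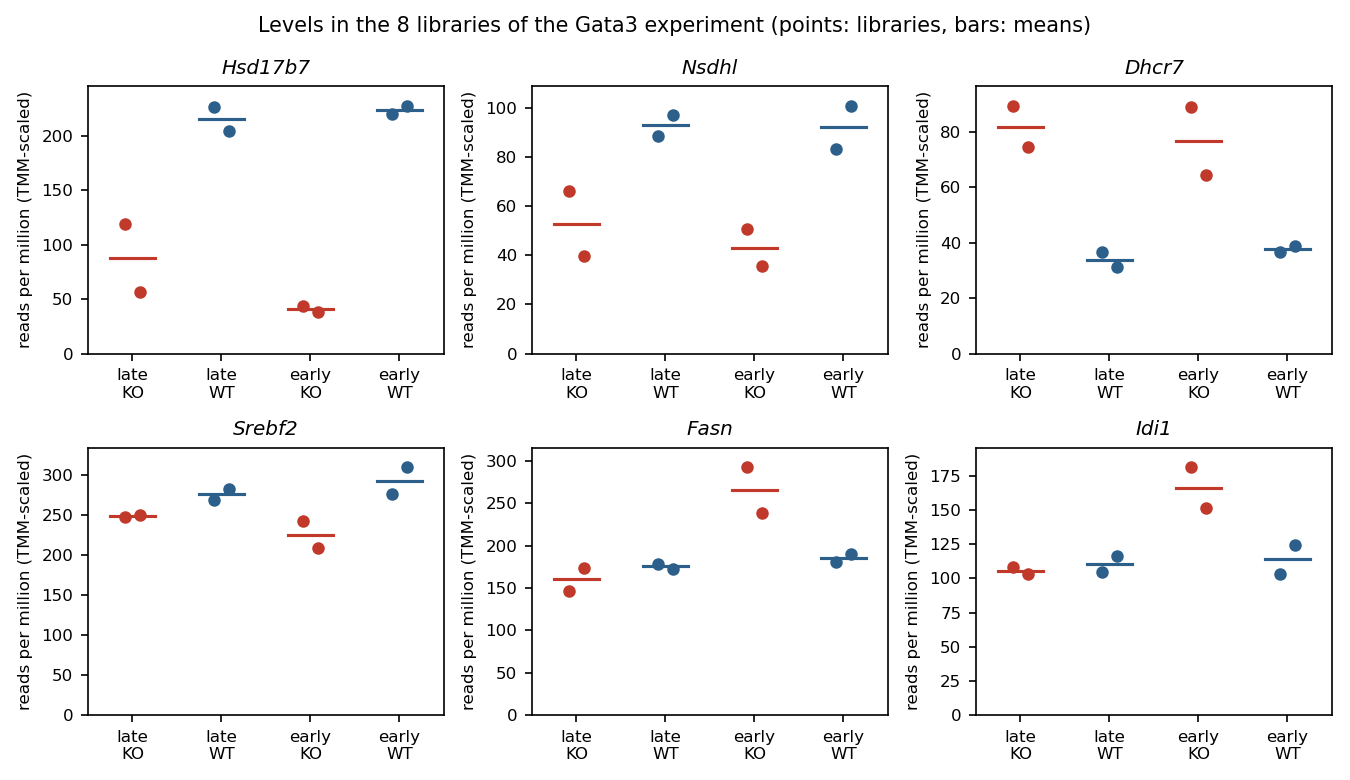
Levels of 6 members in the Gata3 experiment. Each point is 1 library in CPM (linear axis) and each bar the mean of its group, with the groups late KO, late WT, early KO and early WT from left to right. Hsd17b7 and Nsdhl sit lower, and Dhcr7 higher, in KO than in WT libraries at both stages, while Fasn and Idi1 are high in early KO libraries.

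In late Gata3 KO cells 3 of 30 members passed the test, 1 higher and 2 lower, where 14.2% of all genes tested passed, 8.48% higher and 5.7% lower. They were the same 3 post-lanosterol genes with the same signs. The split was 2 higher and 2 lower by DESeq2, where 1422 of 10601 genes passed. It was 1 higher and 1 lower by limma on log2(RPKM + 1), where 1260 of 10601 did. It was 3 higher and 0 lower with no filter on low values, where 12.4% of all genes passed, 6.83% higher and 5.58% lower. With only the 4 late libraries fitted it was 1 higher and 0 lower, where 10.7% of all genes passed, 6.48% higher and 4.24% lower. With the replicate number as a block 13 members passed, 9 higher and 4 lower, where 23.9% of all genes did, 13.5% higher and 10.4% lower. The members added by the block were Mylip (1.31), Acss2 (0.83), Abcg1 (0.73), Scd1 (0.67), Acat2 (0.55), Mvd (0.53), Fads2 (0.52), Scd2 (0.36), Insig1 (-0.52) and Acaca (-0.42), at adjusted p from 0.000676 to 0.0457 in that fit. Dhcr7 had 89.4 and 74.4 CPM in late KO cells, against 36.5 and 31.2 CPM in late WT cells (1.27 ± 0.17, adjusted p = 0.000899). Hsd17b7 had 119 and 56.8 CPM in late KO cells, against 226 and 204 CPM in late WT cells (-1.31 ± 0.28, adjusted p = 0.017). Nsdhl had 66.2 and 39.6 CPM in late KO cells, against 88.7 and 97.1 CPM in late WT cells (-0.83 ± 0.24, adjusted p = 0.0479). The 2 late KO libraries differed among themselves by more for Hsd17b7 and Nsdhl than for Dhcr7, and none of the groups overlapped. The Dhcr7 call held without any one library. Without late KO replicate 1, Hsd17b7 was at -1.92. The Hsd17b7 call did not hold with no filter (adjusted p = 0.105), with only the 4 late libraries (0.0664), or without late WT replicate 1 (0.102) or late WT replicate 2 (0.0785). The Nsdhl call did not hold with no filter (adjusted p = 0.0596), with only the 4 late libraries (0.0523), in limma (0.0549) or without any of 6 libraries (early WT replicates 1 and 2, early KO replicate 2, late WT replicates 1 and 2 and late KO replicate 2), at adjusted p from 0.0521 to 0.194. The members' median was 0.05, against 0.00 over all genes. The 7 macrophage and dendritic cell markers summed to 11.6 to 15.1 CPM in late KO cells and 6.43 to 7.54 CPM in late WT cells. Cd68 among them was higher in late KO cells (0.93 ± 0.26, edgeR adjusted p = 0.0385). The part of these markers was not tested.

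The difference between the late and the early Gata3 KO effect was tested as an interaction. It passed for 1 of 30 members, Fasn (-0.64 ± 0.19, adjusted p = 0.0477), where 12.2% of all genes passed, 7.67% higher and 4.56% lower. With the replicate block it passed for 5, where 22.5% of all genes did, 13.3% higher and 9.24% lower. These were Scd1 (1.33) as higher, and Acaca (-0.73), Fasn (-0.64), Idi1 (-0.62) and Cyp51 (-0.45) as lower. The unblocked Fasn call was lost in limma (adjusted p = 0.0592) and without any of 6 libraries, all but early KO replicate 2 and late KO replicate 2, at adjusted p from 0.0843 to 0.184. Fasn had 147 and 174 CPM in late KO cells, which was not called against late WT cells (-0.13 ± 0.13, adjusted p = 0.589). The difference for Hsd17b7, whose effect was -1.31 at the late and -2.46 at the early stage, did not pass (1.15 ± 0.40, adjusted p = 0.105).

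In early Bcl11b KO cells 13 of 31 members passed the test, 2 higher and 11 lower, where 21% of all genes passed, 11% higher and 10% lower. This split depends on scaling: in limma on log2(RPKM + 1), 12 members passed, 11 higher and 1 lower. In that fit 6908 of 10873 genes tested passed, and the all-gene median was 0.86. The members' median log2 fold change was -0.72, against 0.03 over all genes, and 25 of the 31 were negative. The 11 lower members came from 5 of the 6 roles: Acat2, Pmvk and Fdft1 in the mevalonate and squalene steps, Lss and Hsd17b7 after them, Srebf2 and Insig1 among the regulators, Acly in acetyl-CoA supply, and the desaturases Scd1, Scd2 and Fads2. The 2 that rose were Scap and Fasn.

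The largest falls were in the desaturases, of which 3 of 6 elongation and desaturation members passed and all 6 were negative (median -1.23). Fads2, a front-end desaturase of polyunsaturated fatty acids, had 3.54 and 1.76 CPM in early Bcl11b KO cells, against 28.1 and 23.7 CPM in early WT cells (-3.28 ± 0.51, adjusted p = 0.00207). These levels rest on 34 and 16 reads in KO cells and 134 and 113 reads in WT cells. Scd2 had 378 and 307 CPM in early KO cells, against 859 and 1004 CPM in early WT cells (-1.44 ± 0.16, adjusted p = 0.00042). Scd1 had 38.2 and 18.5 CPM in early KO cells, against 83.6 and 107 CPM in early WT cells (-1.75 ± 0.34, adjusted p = 0.00563). Scd1 and Scd2 make monounsaturated fatty acids and are close paralogs on chromosome 19, so their reads may be shared with each other and with Scd3 and Scd4. Scd1 lies at chr19:44394450-44407709, Scd2 at chr19:44293676-44306864 and Fads2 at chr19:10062765-10101503. All 3 calls held without any one library, although without early KO replicate 1 Fads2 was at -3.92 and Scd1 at -2.42. In all 3 genes every KO library was below every WT library. The other 3 members of this group, Elovl5, Elovl6 and Fads1, had values from -1.01 to -0.19 and did not pass.

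In the mevalonate and squalene group 3 of 8 members tested fell, with a median of -0.74. Fdft1, the squalene synthase, had 136 and 139 CPM in early Bcl11b KO cells, against 219.7 and 233 CPM in early WT cells (-0.72 ± 0.17, adjusted p = 0.0151). Acat2 had 160.2 and 163 CPM in early KO cells, against 302 and 243 CPM in early WT cells (-0.75 ± 0.20, adjusted p = 0.022). Pmvk, the phosphomevalonate kinase, had 24.9 and 12 CPM in early KO cells, against 41.7 and 50.9 CPM in early WT cells (-1.32 ± 0.37, adjusted p = 0.029). The groups did not overlap in any of the 3. With no filter the Fdft1 (edgeR adjusted p = 0.0879) and Acat2 (0.0902) calls were lost. With only the 4 early libraries fitted the Fdft1 (0.0532) and Pmvk (0.117) calls were lost. Fdft1 overlaps Ctsb on the genome, and whether counting used strand is not stated. Its call held without any one library. The Acat2 call did not hold without early WT replicate 1 (adjusted p = 0.0851) or early KO replicate 1 (0.0572), and the Pmvk call without any of 6 libraries, all but early WT replicate 1 and early KO replicate 1, at adjusted p from 0.0529 to 0.0701. Without early KO replicate 1, Pmvk was at -2.0.

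After squalene, Lss had 126 and 106 CPM in early Bcl11b KO cells, against 283 and 236 CPM in early WT cells (-1.16 ± 0.18, adjusted p = 0.00221). Hsd17b7 had 53.5 and 72.6 CPM in early KO cells, against 89.4 and 121 CPM in early WT cells (-0.74 ± 0.20, adjusted p = 0.0285). Nsdhl and Dhcr7, which moved with Hsd17b7 or against it in the Gata3 experiment, did not pass here (0.45 ± 0.22 and 0.19 ± 0.27). With no filter (edgeR adjusted p = 0.0902) and with only the 4 early libraries fitted (0.17) the Hsd17b7 call was lost. The Lss call held without any one library. The Hsd17b7 call did not hold without early WT replicate 2 (adjusted p = 0.0934), early KO replicate 1 (0.118), late KO replicate 1 (0.0550) or late KO replicate 2 (0.0541).

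Among the regulators, Insig1, which retains SCAP in the endoplasmic reticulum and is itself an SREBP target, had 105 and 96.6 CPM in early Bcl11b KO cells, against 184 and 197 CPM in early WT cells (-0.92 ± 0.17, adjusted p = 0.00535). Srebf2 had 83.8 and 55.9 CPM in early KO cells, against 134 and 115 CPM in early WT cells (-0.84 ± 0.25, adjusted p = 0.0374). Scap, the escort of the SREBP precursors, had 64.6 and 55.5 CPM in early KO cells, against 29.5 and 31.9 CPM in early WT cells (0.97 ± 0.25, adjusted p = 0.0229). Scap thus moved against the factor that it carries. The Srebf2 call was lost with no filter (edgeR adjusted p = 0.0819), with only the 4 early libraries fitted (0.111) and with the replicate block (0.05715). With only the 4 early libraries fitted the Scap call was lost as well (0.158). The Insig1 call held without any one library. The Srebf2 call did not hold without early WT replicate 1 (adjusted p = 0.114), early KO replicate 2 (0.133), late KO replicate 1 (0.0579) or late KO replicate 2 (0.0581), and the Scap call without any library but early WT replicate 2 and early KO replicate 2, at adjusted p from 0.0537 to 0.0831.

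In fatty acid chain synthesis, Acly had 446 and 411 CPM in early Bcl11b KO cells, against 880.2 and 792 CPM in early WT cells (-0.96 ± 0.16, adjusted p = 0.00254). Fasn had 526 and 380.4 CPM in early KO cells, against 217 and 265 CPM in early WT cells (0.91 ± 0.24, adjusted p = 0.0225). The enzyme that supplies acetyl-CoA and the synthase that uses its product therefore moved in opposite directions. Acaca, the acetyl-CoA carboxylase between them, did not pass (-0.33 ± 0.27). The Acly call held without any one library, and the Fasn call did not hold without early WT replicate 1 (adjusted p = 0.0952) or early KO replicate 1 (0.159). None of the 3 sterol transport members tested passed, and all 3 were negative (median -0.60).

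**Figure D2:**
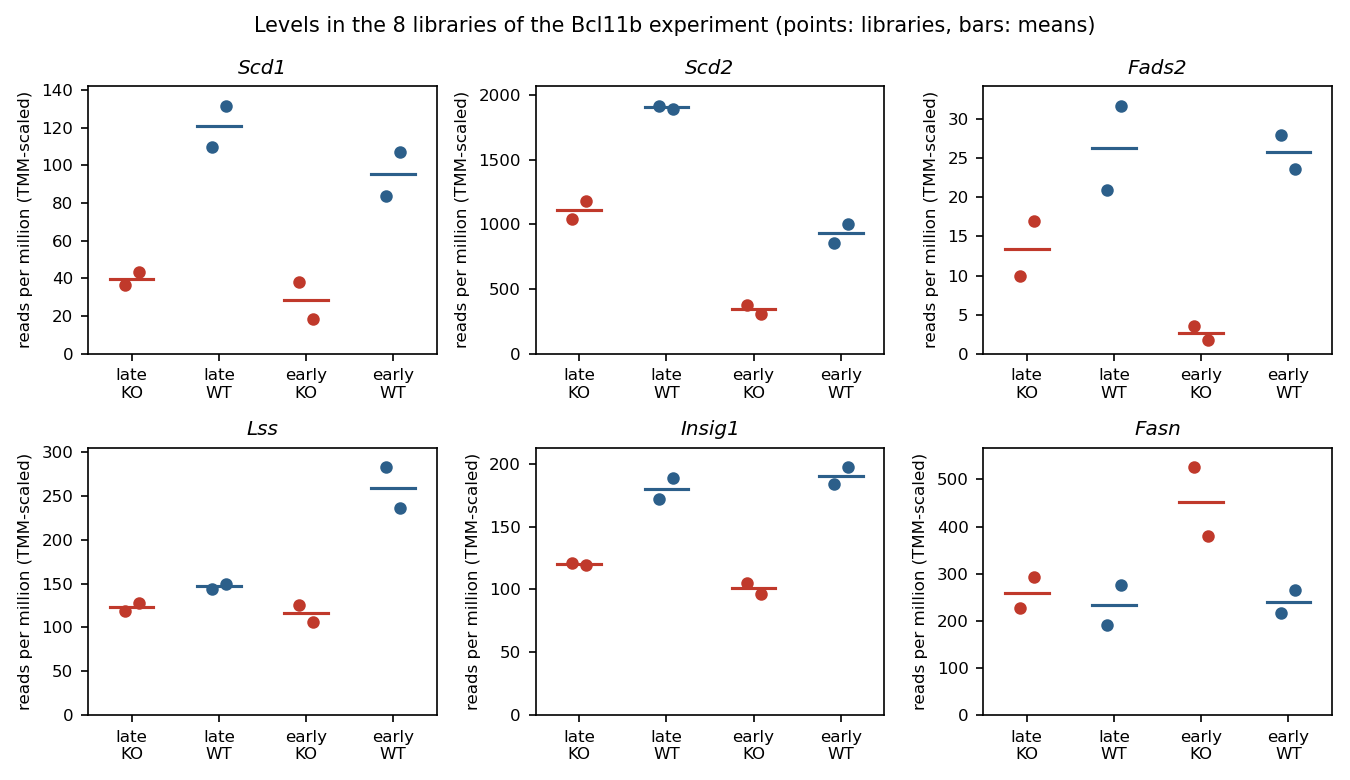
Levels of 6 members in the Bcl11b experiment. Each point is 1 library in CPM (linear axis) and each bar the mean of its group, with the groups late KO, late WT, early KO and early WT from left to right. Scd1 and Scd2 are lower in KO than in WT libraries at both stages, and Fads2, Lss and Insig1 are lower and Fasn is higher in early KO than in early WT libraries.

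RPKM values are scaled to a library total that counts reads outside genes, while the fold changes above rest on gene reads with TMM scaling. In limma on log2(RPKM + 1), Acat2, Acly, Fdft1, Hsd17b7, Insig1 and Srebf2 had values from 0.18 to 0.40, positive in sign and below the median of all genes. Of the other 5 lower members, Fads2 passed there as lower (-1.30), and Lss, Pmvk, Scd1 and Scd2 had values from -0.49 to -0.01 and did not pass. Fasn (1.83) and Scap (1.53) passed there as higher. Other measures differed between the same groups: 7 of 13 cell division genes fell (median -0.96), where 10% of all genes did. Among them was Mki67, a proliferation marker, with 1324 and 1447 CPM in early KO cells, against 2619 and 2778 CPM in early WT cells (-0.96 ± 0.13, edgeR adjusted p = 0.00116). The summed level of 5 mast cell and basophil markers was 42.9 to 45.3 CPM in early KO cells and 3.98 to 11.9 CPM in early WT cells. Of these, Ms4a2 and Fcer1a had no more than 3 reads in any library of the experiment. Cpa3 had up to 435 reads and was higher in early KO cells (4.30 ± 0.75, edgeR adjusted p = 0.00347). Other lists were lower in early KO cells, as most members were. The 4 adipocyte markers summed to 0 to 0.551 CPM in early KO cells and 3.98 to 21.8 CPM in early WT cells. Their most reads in any library were 8 for Adipoq, 7 for Cfd, 41 for Plin1 and 55 for Lep. The 4 hepatocyte markers summed to 0 to 0.730 CPM in early KO cells and 2.51 to 6.71 CPM in early WT cells. Their most reads in any library were 5 for Alb, 5 for Apoa1, 8 for Ttr and 19 for Serpina1a. The 7 macrophage and dendritic cell markers summed to 13.01 to 13.55 CPM in early KO cells and 20.1 to 61.0 CPM in early WT cells. The sum of 4 erythroid and neutrophil markers was 10.01 to 10.04 CPM in early KO cells and 0.629 to 2.09 CPM in early WT cells. Hbb-bs of that list was not among the gene symbols. Hba-a1 had up to 96 reads in a library of the experiment, S100a8 up to 6, S100a9 up to 10 and Elane 0. The sum of 5 B cell markers was 96.1 to 131 CPM in early KO cells and 86.8 to 102 CPM in early WT cells, and that of 9 T helper markers 4929 to 5475 CPM in early KO cells and 3069 to 3570 CPM in early WT cells. The part of these measures and of the early WT libraries' background in the members' changes was not tested. After a background rate was subtracted from each library 13 members passed, 2 higher and 11 lower, where 2130 of 10873 genes passed.

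In late Bcl11b KO cells 2 of 31 members passed the test, both lower, where 2.25% of all genes passed, 1.71% higher and 0.543% lower. With only the 4 late libraries fitted 8 members passed, 1 higher (Me1) and 7 lower (Scd1, Scd2, Fads1, Fads2, Acat2, Insig1 and Pmvk), where 16.7% of all genes did, 9.73% higher and 6.97% lower. The 2 that passed with all 8 libraries fitted, Scd1 and Scd2, were the desaturase paralogs that had also fallen in early KO cells. Scd1 had 36.4 and 43.2 CPM in late KO cells, against 109.7 and 132 CPM in late WT cells (-1.60 ± 0.33, adjusted p = 0.0351). Scd2 had 1038 and 1182 CPM in late KO cells, against 1916 and 1890.4 CPM in late WT cells (-0.78 ± 0.16, adjusted p = 0.0351). No KO library reached a WT library in either gene. Both calls were lost without any one of the 4 late libraries, at adjusted p from 0.177 to 0.312 for Scd1 and from 0.181 to 0.331 for Scd2, and with the replicate number as a block (0.0654 and 0.0605). They were also lost after background subtraction (0.0587 and 0.0606).

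Among the members that did not pass, Insig1 had 121 and 119 CPM in late Bcl11b KO cells and 172 and 188 CPM in late WT cells (-0.59 ± 0.17, adjusted p = 0.127). Fads2 had 9.93 and 17.0 CPM in late KO cells and 20.9 and 31.8 CPM in late WT cells (-0.97 ± 0.46, adjusted p = 0.423). Fasn, which had risen early, was at 0.16 ± 0.24. The median of the 31 members was -0.25, against -0.02 over all genes, and 25 were negative. Cell division genes fell here as well, 7 of 13 (median -1.07), where 0.543% of all genes did. Mki67 was at 1539 and 1621 CPM in late KO cells, against 3181 and 3012 CPM in late WT cells (-0.97 ± 0.13, edgeR adjusted p = 0.00687). The 5 B cell markers summed to 20.1 to 31.4 CPM in late KO cells and 4.40 to 5.18 CPM in late WT cells, and the 9 T helper markers to 12003 to 13229 CPM in late KO cells and 7879 to 8038 CPM in late WT cells. The 7 macrophage and dendritic cell markers summed to 32.7 to 36.4 CPM in late KO cells and 10.2 to 14.3 CPM in late WT cells. Their part in the Scd1 and Scd2 values was not tested.

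The difference between the late and the early Bcl11b KO effect passed edgeR's test for 0 of 31 members, where 3.12% of all genes passed, 1.83% higher and 1.29% lower. At an unadjusted p under 0.05 there were 7, of which 5 were positive and 2 negative. DESeq2 called 5 members, where it called 902 of 10873 genes. The nearest to the threshold were Acly (0.83 ± 0.22, adjusted p = 0.0754), Lss (0.91 ± 0.26, adjusted p = 0.0901) and Fads2 (2.30 ± 0.67, adjusted p = 0.096). The smaller count of late calls is thus no test of a smaller late effect. In limma on log2(RPKM + 1) 15 members passed, all negative, where 6087 of 10873 genes passed and the median of all genes was -1.04.

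**Figure D3:**
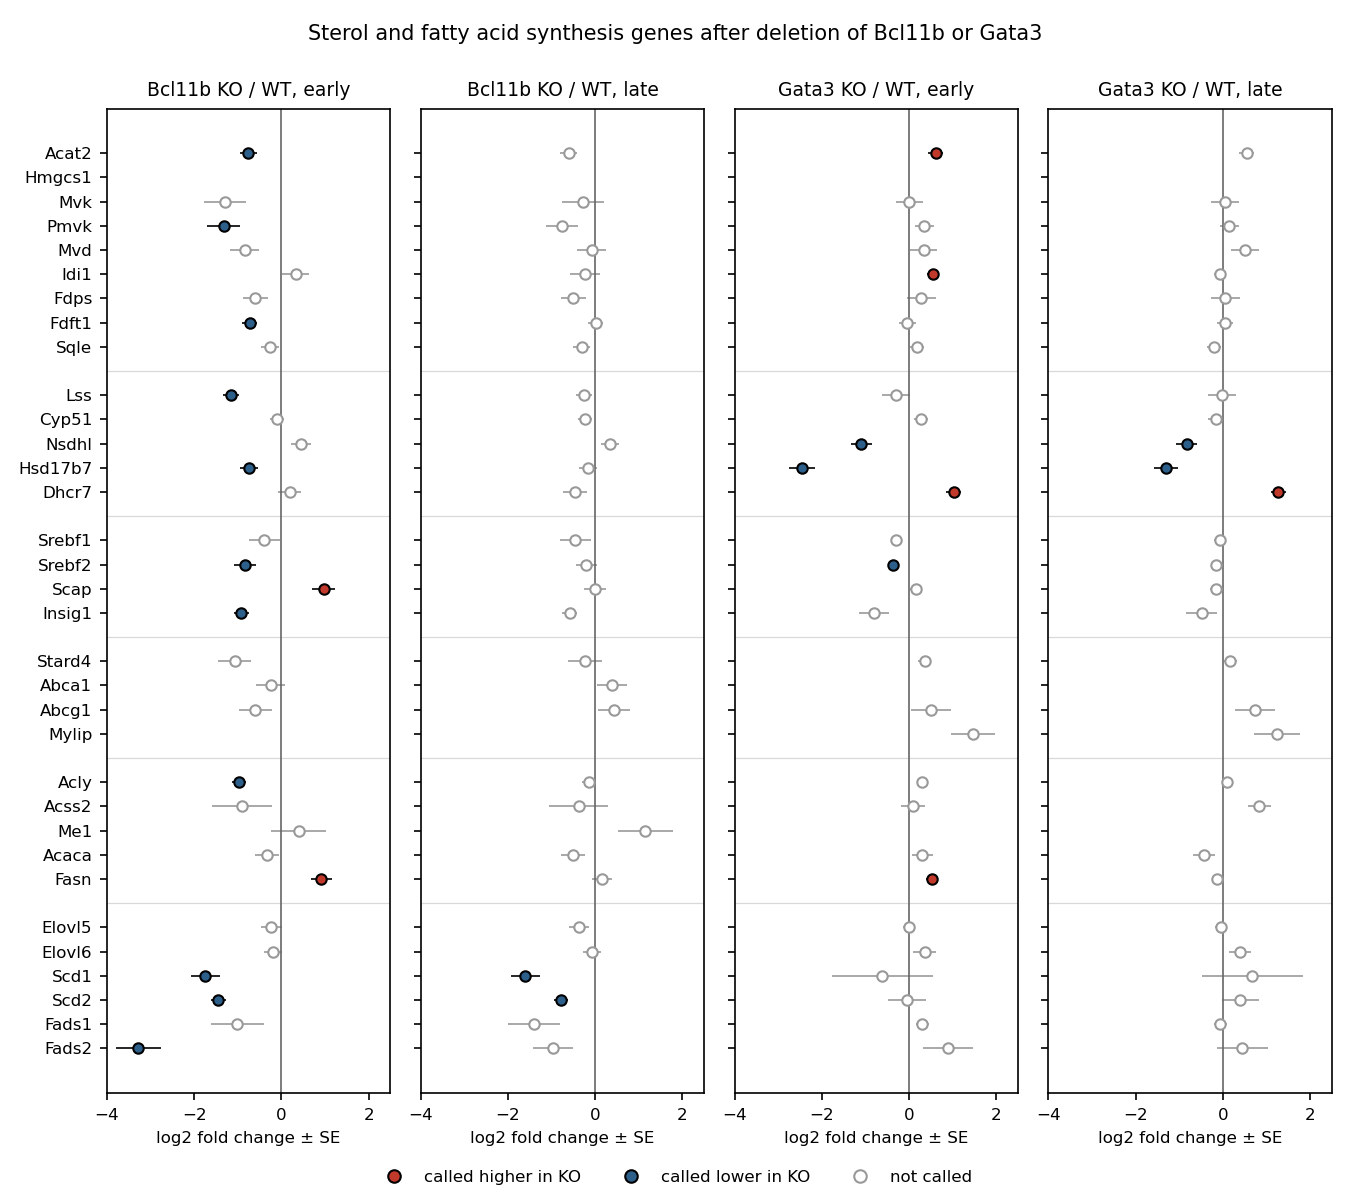
Log2 fold change of each member, KO over WT, with its standard error as a bar, in the early and late Bcl11b and the early and late Gata3 comparison. Filled points passed the adjusted p threshold of 0.05 (red higher, blue lower in KO), open points did not, and a member with no point was not tested. Most early Bcl11b points lie left of 0, while Hsd17b7 and Nsdhl lie left and Dhcr7 right of 0 in both Gata3 panels.

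Over both experiments and without the block, 16 members passed in at least 1 of the 4 KO comparisons, 13 in the Bcl11b and 7 in the Gata3 experiment. The 4 members called in both early comparisons were Acat2, Hsd17b7, Srebf2 and Fasn. Of all genes tested, 21% passed in the early Bcl11b and 30.7% in the early Gata3 comparison. How many of all genes passed in both, or in at least 1 of the KO comparisons, was not counted. The counts of 16, 13, 7 and 4 members thus have no background beside them. Fasn rose and Hsd17b7 and Srebf2 fell in both early KO groups, and Acat2 rose in early Gata3 KO cells and fell in early Bcl11b KO cells. The experiments share no library. Bcl11b transcript was itself lower in early Gata3 KO cells, with 109 and 107 CPM, against 161 and 134 CPM in early WT cells (-0.45 ± 0.12, adjusted p = 0.0194).

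Late and early cells were compared within each genotype. In the Gata3 experiment 0 of 30 members and 0% of all genes passed edgeR's test between late and early WT cells, with 0 members at an unadjusted p under 0.05 and 0 by DESeq2; the members' values lay between -0.50 and 0.25. No label says whether these late and early WT libraries, of which the same-numbered ones differed less than replicates did, come from separate cultures, and this count and the stage interactions rest on treating them as separate. Between late and early Gata3 KO cells 6 of 30 members passed, 2 higher and 4 lower, where 24.5% of all genes passed, 14.1% higher and 10.3% lower. With the replicate block 12 passed, 4 higher and 8 lower, where 35.1% of all genes did, 19.2% higher and 15.9% lower.

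Hsd17b7 had 119 and 56.8 CPM in late Gata3 KO cells, against 43.2 and 38.1 CPM in early KO cells (1.09 ± 0.29, adjusted p = 0.0275). Acss2, which makes acetyl-CoA from acetate, had 20.2 and 13.7 CPM in late KO cells, against 9.96 and 6.75 CPM in early KO cells (0.99 ± 0.27, adjusted p = 0.0219). These 2 were higher late. Fasn had 147 and 174 CPM in late KO cells, against 292 and 239 CPM in early KO cells (-0.73 ± 0.13, adjusted p = 0.00277). Idi1 had 108 and 103 CPM in late KO cells, against 181 and 152 CPM in early KO cells (-0.66 ± 0.14, adjusted p = 0.00536). Fasn and Idi1, both raised in early KO cells, were thus lower in late KO cells. Cyp51 had 251 and 186 CPM in late KO cells, against 347 and 271 CPM in early KO cells (-0.51 ± 0.16, adjusted p = 0.0481). Scap had 47.4 and 60.6 CPM in late KO cells, against 74.1 and 73.6 CPM in early KO cells (-0.44 ± 0.14, adjusted p = 0.0413). Gata3 transcript itself was higher in late KO cells (1.28 ± 0.11, adjusted p = 2.3e-05). The Fasn call held without any one library. The Idi1 call did not hold without early KO replicate 1 (adjusted p = 0.0633), the Acss2 call without early KO replicate 2 (0.178) or late KO replicate 1 (0.158), and the Hsd17b7 call without any library but late KO replicate 2 (0.0525 to 0.158, with the value at 0.46 without late KO replicate 1). The Cyp51 call was lost without early KO replicate 1 (0.318), late KO replicate 2 (0.225), early WT replicate 2 or either late WT replicate (0.0510 to 0.0587 for these 3), and the Scap call without either early KO replicate (0.153 and 0.136), late WT replicate 2 (0.0566) or late KO replicate 1 (0.164). With only the 4 KO libraries fitted the Hsd17b7 (0.101), Cyp51 (0.0608) and Scap (0.0585) calls were lost, and with no filter that of Hsd17b7 (0.143).

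In the Bcl11b experiment 16 of 31 members passed between late and early WT cells, 6 higher and 10 lower, where 41.6% of all genes passed, 19.7% higher and 22% lower. Between late and early KO cells 13 passed, 6 higher and 7 lower, where 36.4% of all genes passed, 16.8% higher and 19.5% lower. In limma on log2(RPKM + 1) the splits were 20 higher and 3 lower in WT cells and 7 higher and 5 lower in KO cells, with the median of all genes at 1.04 and 0.11. In limma 7786 of 10873 genes passed in WT cells and 4249 in KO cells. The shares are near those of all genes. The comparison cannot be told apart from how the libraries were read, because the late libraries nearly lack reads of genes with many near-identical copies, as given for Gapdh and Ppia. Reads of 94 ribosomal protein genes, of the same kind, were 1.07% to 1.27% of gene reads in the late libraries and 5.99% to 7.06% in the early ones. The values that follow are therefore a description of these libraries.

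Mevalonate pathway genes were lower in late cells: 6 of 8 tested in WT cells and 4 of 8 in KO cells, with none higher. Idi1 had 6.16 and 4.11 CPM in late WT cells, against 60.3 and 49.9 CPM in early WT cells (-3.42 ± 0.35, adjusted p = 4.81e-05). Fdps had 23.2 and 24.8 CPM in late WT cells, against 124 and 119.9 CPM in early WT cells (-2.34 ± 0.30, adjusted p = 0.000201). Acat2 had 72.1 and 58.7 CPM in late WT cells, against 302 and 243 CPM in early WT cells (-2.06 ± 0.20, adjusted p = 3.71e-05). These are transcript levels of enzymes at the head and middle of the pathway, and no late library reached an early one. As given above, reads of Acat2 may be shared with Acat3 and Gm20591, and those of Idi1 with Idi2. Mvk, the mevalonate kinase, had 5.60 and 11.5 CPM in late WT cells, against 49.0 and 32.1 CPM in early WT cells (-2.24 ± 0.49, adjusted p = 0.00438). Mvd, the mevalonate diphosphate decarboxylase, had 23.7 and 33.4 CPM in late WT cells, against 56.5 and 89.7 CPM in early WT cells (-1.36 ± 0.34, adjusted p = 0.00923). The Mvk call did not hold without late WT replicate 1 (adjusted p = 0.0539), and so was the Mvd call (0.0950); without late WT replicate 2 Mvk was at -2.86. Fdft1 had 94.0 and 93.7 CPM in late WT cells, against 219.7 and 233 CPM in early WT cells (-1.27 ± 0.17, adjusted p = 0.000292). In limma on log2(RPKM + 1), with the median of all genes at 1.04, Fdft1 and Mvd were at 0.18 and 0.11 in the WT comparison, positive in sign and below that median. Acat2 (-0.57, limma adjusted p = 0.0584) and Mvk (-0.63, 0.097) were negative there but did not pass. Idi1 (-1.25) and Fdps (-0.81) passed there as lower. In the KO comparison Fdft1 was at -0.38 in limma and did not pass.

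Between late and early Bcl11b KO cells, Idi1 had 4.43 and 4.32 CPM in late cells, against 58.8 and 79.7 CPM in early cells (-3.98 ± 0.36, adjusted p = 2.33e-05). Fdps had 16.1 and 17.9 CPM in late KO cells, against 103 and 58.5 CPM in early KO cells (-2.25 ± 0.30). Acat2 had 41.7 and 44.2 CPM in late KO cells, against 160.2 and 163 CPM in early KO cells (-1.91 ± 0.20). The order of late below early was thus the same in KO and WT cells for these 3 genes. Fdft1 was lower as well (-0.54 ± 0.17, adjusted p = 0.0313), with a call that was lost without any of 6 libraries, all but both early WT replicates, at adjusted p from 0.0700 to 0.170.

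After lanosterol, Hsd17b7 and Nsdhl were higher in late cells. Hsd17b7 had 474 and 482 CPM in late Bcl11b WT cells, against 89.4 and 121 CPM in early WT cells (2.19 ± 0.21, adjusted p = 3.02e-05). It had 429 and 424 CPM in late KO cells, against 53.5 and 72.6 CPM in early KO cells (2.76 ± 0.21, adjusted p = 7.87e-06). Nsdhl had 196 and 179.9 CPM in late WT cells, against 85.7 and 77.5 CPM in early WT cells (1.20 ± 0.22, adjusted p = 0.0018), and was higher in late KO cells too (1.10 ± 0.22, adjusted p = 0.00339). Lss, which acts before them in the pathway, was lower in late WT cells, with 144 and 149.7 CPM, against 283 and 236 CPM in early WT cells (-0.82 ± 0.18, adjusted p = 0.00495). Its sign was positive in limma on log2(RPKM + 1) (0.61, with all genes at 1.04).

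Srebf2 had 213 and 295 CPM in late Bcl11b WT cells, against 134 and 115 CPM in early WT cells (1.02 ± 0.25, adjusted p = 0.00757). It had 197 and 244 CPM in late KO cells, against 83.8 and 55.9 CPM in early KO cells (1.65 ± 0.25, adjusted p = 0.000679). Scap had 51.1 and 64.8 CPM in late WT cells, against 29.5 and 31.9 CPM in early WT cells (0.92 ± 0.25, adjusted p = 0.0149). Both regulators were thus higher in late WT cells. Without late WT replicate 2 the WT calls of Srebf2 (adjusted p = 0.0783) and Scap (0.132) were lost.

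Acly, at the entry to fatty acid synthesis, had 168 and 189 CPM in late Bcl11b WT cells, against 880.2 and 792 CPM in early WT cells (-2.23 ± 0.16, adjusted p = 4.64e-06), and 172 and 152 CPM in late KO cells, against 446 and 411 CPM in early KO cells (-1.40 ± 0.16). Acaca had 24.5 and 23.3 CPM in late WT cells, against 69.3 and 74.8 CPM in early WT cells (-1.59 ± 0.27), and 16.5 and 17.1 CPM in late KO cells, against 66.6 and 48.4 CPM in early KO cells (-1.78 ± 0.28). Fasn passed between the stages in KO cells, with 227 and 293 CPM in late KO cells, against 526 and 380.4 CPM in early KO cells (-0.80 ± 0.24, adjusted p = 0.0238). That call did not hold without early KO replicate 1 (adjusted p = 0.184) or late KO replicate 1 (0.178). In limma on log2(RPKM + 1) Acaca was at -0.07 between late and early WT cells and did not pass (adjusted p = 0.762), with all genes at 1.04. Fasn was at -0.62 between late and early KO cells in limma and did not pass (0.0632). Acaca overlaps Tada2a on the genome, so part of its reads may belong to that gene.

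Elovl5, an elongase of polyunsaturated fatty acids, had 471 and 379.6 CPM in late Bcl11b WT cells, against 178 and 119 CPM in early WT cells (1.52 ± 0.24, adjusted p = 0.000658), and 348 and 309 CPM in late KO cells, against 108 and 146 CPM in early KO cells (1.37 ± 0.23). Scd2 was higher in late WT cells (1.03 ± 0.16, adjusted p = 0.000687) and in late KO cells (1.70 ± 0.16, adjusted p = 3.75e-05) than in early cells of the same genotype. Both genes are among the most abundant members per kb in the late libraries. Fads2 was higher in late KO cells (2.33 ± 0.50, adjusted p = 0.00487), a call lost without late KO replicate 2 (adjusted p = 0.0523), with the value at 2.97 without early KO replicate 1. Elovl6, an elongase of saturated fatty acids, had 119.7 and 96.3 CPM in late WT cells, against 172 and 174 CPM in early WT cells (-0.68 ± 0.21, adjusted p = 0.0265). The Elovl6 call did not hold without early WT replicate 1 (adjusted p = 0.0575), early WT replicate 2 (0.0516) or late WT replicate 2 (0.162), and its sign was positive in limma on log2(RPKM + 1) (0.68, with all genes at 1.04).

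**Figure D4:**
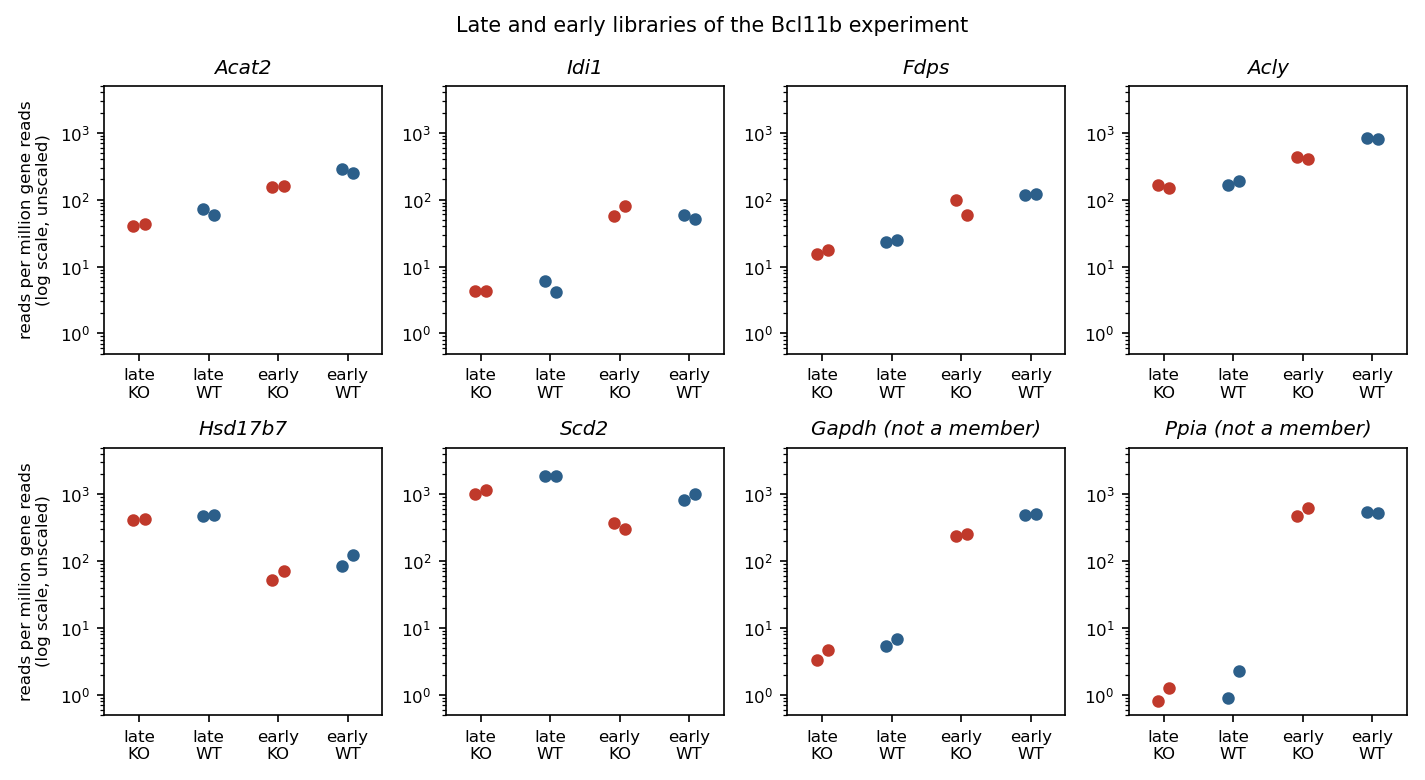
CPM without TMM scaling (log axis) of 6 members and of Gapdh and Ppia in the 8 libraries of the Bcl11b experiment, 1 point per library, with the groups late KO, late WT, early KO and early WT from left to right. Late libraries, KO and WT alike, lie far below early ones for Gapdh and Ppia, and they are low in Acat2, Idi1, Fdps and Acly and high in Hsd17b7 and Scd2.

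Peaks in late WT Th2 cells were assigned to members as the deposited lists give the closest start, without peaks that overlap an input peak. With 1 library per antibody they have no replicate check. Of the 33 members, 20 had a Bcl11b peak and 25 a GATA3 peak; 18 had both, 2 only Bcl11b, 7 only GATA3 and 6 neither. Among members tested in the Bcl11b experiment 61.3% had a Bcl11b peak and 74.2% a GATA3 peak, against 50% and 53.5% of all genes tested there. A Bcl11b peak centred within 1 kb of the start was found for 13 members and a GATA3 peak there for 8, which is 38.7% and 25.8% of members tested, against 30.9% and 16.4% of genes. Of the 32 Bcl11b peaks of members 13 overlapped a GATA3 peak by at least 1 base. Whether these shares differ from those of all genes was not tested. Exons and introns were not part of the annotation used, so peaks are placed only by gene interval and distance to the start, on mm10.

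The strongest Bcl11b peak of a member, by the authors' fold enrichment, lay over the start of Hmgcs1 (chr13:119689508-119691143, 9.66-fold, centre 24 bases before the start), whose promoter is printed above and which is listed at 0 reads in the RNA tables. It also had a GATA3 peak inside the gene (chr13:119692473-119693094, 8.3-fold). The strongest GATA3 peak lay inside Srebf2, 9134 bases after its start (chr15:82156123-82156682, 12.15-fold), over a Bcl11b peak (chr15:82156103-82156831, 5.56-fold). The median enrichment over all peaks of either antibody was 3.01-fold, so both Srebf2 peaks lie above it. Insig1 had both factors over its start (Bcl11b at chr5:28070427-28072768, 3.19-fold, and GATA3 at chr5:28071407-28072376, 6.13-fold).

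Hsd17b7 had a Bcl11b peak over its start (chr1:169968663-169969915, 2.31-fold) and, inside the gene, a Bcl11b peak (chr1:169965172-169966088, 2.92-fold) that overlapped a GATA3 peak (chr1:169965190-169966444, 3.32-fold). Nsdhl had 1 GATA3 peak, inside the gene 21576 bases after the start (chrX:72939887-72940306, 4.51-fold), and no Bcl11b peak. Dhcr7 had 3 GATA3 peaks, the nearest 11891 bases after its start and inside the gene (chr7:143834854-143835261, 2.44-fold), and no Bcl11b peak. The 3 members called at both stages of the Gata3 experiment each had an assigned GATA3 peak, as did 75.8% of the 33 members, and none of the 3 had one within 1 kb of the start.

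Of the desaturases, Scd2 had Bcl11b (chr19:44293282-44295477, 2.94-fold) and GATA3 (chr19:44293839-44294433, 2.02-fold) within 1 kb of its start. Scd1 had a Bcl11b peak 19195 bases after its start and beyond the end of the gene (chr19:44387715-44389311, 2.41-fold). Of its 3 GATA3 peaks, 1 overlapped that Bcl11b peak (chr19:44388943-44389617, 3.88-fold) and 1 lay farther beyond the gene (chr19:44384590-44385123, 3.96-fold). The weakest was at the start (chr19:44407795-44408190, 1.25-fold). Fads2 had a Bcl11b peak at its start (chr19:10100331-10101832, 1.64-fold). Lss had 2 places inside the gene with both factors, about 10 kb after the start, with Bcl11b at 5.18-fold and 5.33-fold. Fasn had Bcl11b alone over its start (chr11:120822907-120826447, 2.95-fold). Acat2, Mvk, Mvd, Idi1, Acly and Me1 had neither. Acat2 and Acly, which fell early in the Bcl11b experiment, thus had no peak of either factor that was clear of input, and Acat2 had 1 Bcl11b peak that overlapped an input peak.

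**Figure D5:**
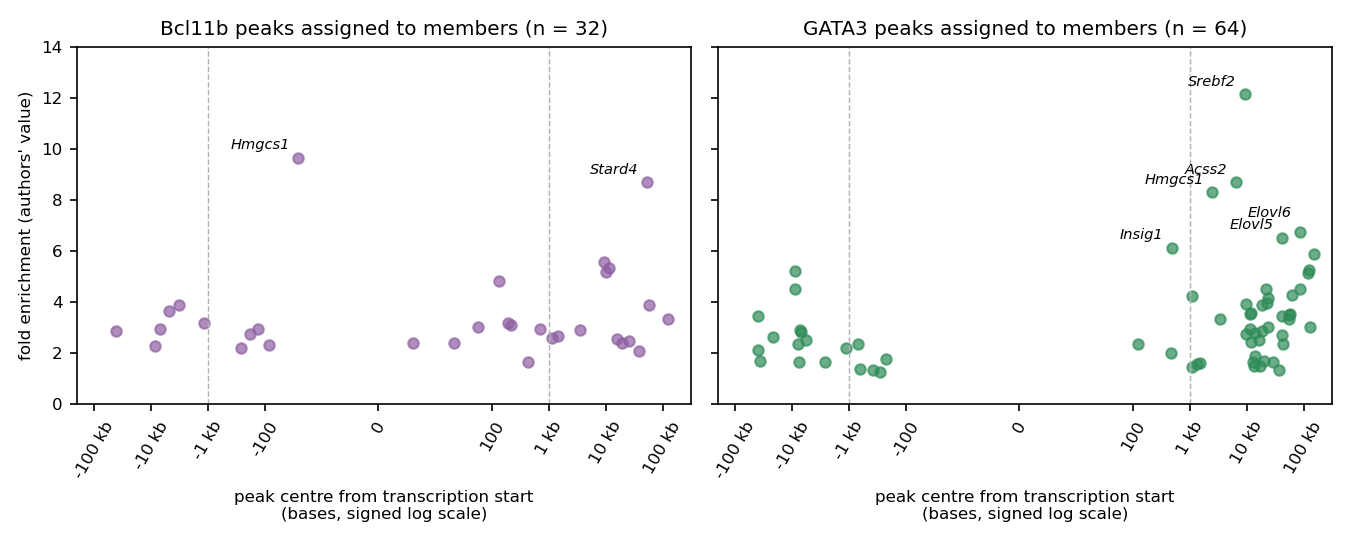
Fold enrichment, as the authors give it, of each peak assigned to a member against the distance of its centre from the transcription start (signed log axis, downstream to the right), for 32 Bcl11b peaks on the left and 64 GATA3 peaks on the right. Dashed lines mark 1 kb on either side of the start, within which 13 members have a Bcl11b and 8 a GATA3 peak.

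Other genes of lipid metabolism, from lists of the same pathways that hold no member, were counted in the same fits. Of all genes, 11% were higher and 10% lower in early Bcl11b KO cells, and 14% and 16.8% in early Gata3 KO cells. In late Gata3 KO cells 8.48% were higher and 5.7% lower. Whether the list counts differ from these shares was not tested. Of 14 other sterol pathway genes tested, 1 fell in early Bcl11b KO cells (Lbr, a sterol reductase of the inner nuclear membrane, -0.82 ± 0.18, adjusted p = 0.0106) and none rose, with a median of -0.02. In early Gata3 KO cells Acat1, the mitochondrial thiolase, rose (0.54 ± 0.11, adjusted p = 0.00427) and Tm7sf2, a sterol reductase, fell (-0.91 ± 0.28, adjusted p = 0.0304). Of 11 genes of SREBP and LXR control, 2 rose and 1 fell in early Bcl11b KO cells: Fbxw7, a ubiquitin ligase subunit that marks nuclear SREBP for degradation (1.52 ± 0.34, adjusted p = 0.0108), Mbtps1, the first of the proteases that cleave SREBP (0.84 ± 0.27, adjusted p = 0.0499), and, lower, Tmem97, an SREBP target (-0.98 ± 0.31, adjusted p = 0.0453). In early Gata3 KO cells Lpcat3, an LXR target that remodels phospholipids, fell (-0.88 ± 0.12, adjusted p = 0.000252) and Npc2, which moves cholesterol out of lysosomes, rose (0.49 ± 0.17, adjusted p = 0.0495), 1 of 11 in each direction. In late Gata3 KO cells Lpcat3 fell (-0.47 ± 0.12, adjusted p = 0.0259), and Npc2 (1.00 ± 0.17, adjusted p = 0.00324) and Fbxw7 (0.81 ± 0.19, adjusted p = 0.0196) rose.

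Of 14 fatty acid oxidation genes, 7 fell and 1 rose in early Gata3 KO cells, where 16.8% of all genes were lower and 14% higher, and the median was -0.42, against 0.00 over all genes. Acadm, the medium-chain acyl-CoA dehydrogenase, had 27.1 and 27.6 CPM in early KO cells, against 57.9 and 62.5 CPM in early WT cells (-1.14 ± 0.12, adjusted p = 3.86e-05). The exception was Acadl, the long-chain enzyme, with 349 and 289 CPM in early KO cells, against 132 and 154 CPM in early WT cells (1.16 ± 0.14, adjusted p = 0.000108). Of 15 other fatty acid synthesis genes, 3 rose (Agpat3, Acsl5 and Dgat2, at 0.45 to 1.60) and 3 fell (Acsl3, Acsl4 and Dgat1) in early Gata3 KO cells, with a median of -0.04. Dgat1, which makes triglyceride, had 62.0 and 49.4 CPM in early KO cells, against 315 and 239 CPM in early WT cells (-2.31 ± 0.25, adjusted p = 0.000133), and its KO effect differed between the stages (2.82 ± 0.35, adjusted p = 0.00118). In late Gata3 KO cells 2 oxidation genes were higher and 2 lower, where 8.48% of all genes were higher and 5.7% lower. Of 13 cell division genes, 3 were higher in early Gata3 KO cells and 0 passed in late Gata3 KO cells. In late Gata3 KO cells Mecr, a fatty acid synthesis gene, fell (-0.77 ± 0.19, edgeR adjusted p = 0.0247). Cyb5r3, a sterol pathway gene, rose there (0.42 ± 0.12, 0.0476). In early Bcl11b KO cells the fatty acid synthesis genes Elovl1 (1.19 ± 0.30, 0.0193) and Acsl4 (0.65 ± 0.20, 0.0449) rose. Acsl3 fell (-0.94 ± 0.29, 0.0434), and the oxidation gene Acadvl rose (0.88 ± 0.23, 0.0204), by the same test.

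Within the Gata3 experiment, the libraries numbered 1 had higher levels than the libraries numbered 2 for many members. Of the 30 members tested 18 were higher in library 1 than in library 2 in all 4 groups, where 14.5% of 10601 genes were, and 0 were the other way in all 4, where 14.3% of genes were. Scd1 had 48.5 and 9.12 CPM in late KO cells, 27.7 and 6.64 CPM in late WT cells, 23.6 and 6.41 CPM in early KO cells and 35.4 and 10.9 CPM in early WT cells, libraries 1 and 2 in each case. The others were Abcg1, Acaca, Acat2, Acly, Acss2, Cyp51, Elovl6, Fads2, Fdft1, Fdps, Insig1, Lss, Mvd, Mvk, Mylip, Pmvk and Scd2. In the Bcl11b experiment 0 of 31 members had this order and 1, Srebf1, the opposite one, where 7.3% and 6.7% of genes had them. The labels do not say what a library number marks, and this count was made after the values were seen. Scd1 had a wide standard error in this experiment (-0.61 ± 1.16 in early KO cells).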

How the data were processed

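RNA of 16 libraries (2 per group, 8 groups) was sequenced after amplification from 10 ng with an Ovation V2 kit, per the labels' protocols. The authors deposited, per library, raw read counts and RPKM values of 29257 RefSeq transcripts, and MACS peak lists with a tag count, a score (-10 log10 of the caller's p), a fold enrichment (a ratio to background) and a false discovery rate in percent, per the file headers. Per the submitters' processing notes the build was mm10 and the tools were MACS 1.4.2, Novoalign, Bowtie, TopHat2 2.0.13 and CASAVA 2.18, with no role for each. The sources used here do not give how reads of near-identical genes were handled or the use of strand.

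For each symbol the transcript with the most reads stood for the gene. Each experiment was fitted over all of its genes with at least 1 RPKM in at least 2 of 8 libraries (10873 genes for Bcl11b, 10601 for Gata3), with edgeR 4.0.16 (TMM, robust quasi-likelihood test, 1 coefficient per group, R 4.3.3) and Benjamini-Hochberg adjustment. A call is an adjusted p under 0.05, and the SE is the log2 fold change divided by the root of its F. Alternatives were DESeq2 1.42.0, no filter, only the 4 libraries compared, limma 3.58.1 on log2(RPKM + 1), a replicate block, subtraction of a background read rate per kb, and leaving out each library. No label ties same-numbered libraries to one culture. Their deviations (replicate 1 minus replicate 2) correlated at 0.14 to 0.55 in each of the 6 pairs of Gata3 groups, so blocked counts are given beside the unblocked ones there, and at -0.066 to 0.28 in the Bcl11b experiment. The fit was tested on simulated counts. Depth was 4687552 to 14577958 gene reads per library. Tables and figures were made with Python 3.11.15, pandas 2.3.3 and matplotlib 3.10.9. Levels are given per library for members called in at least 1 comparison, and some of the called genes of the further lists were named, mainly for KO against WT. Members and lists were chosen with earlier results of these data known. Antibody peaks that overlap an input peak by at least 1 base (2197 of 17459 for Bcl11b and 1413 of 28612 for GATA3) were left out.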

Additional observations from a re-analysis of the deposited data

Results flagged for a closer look

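The KO effect on Fasn, the fatty acid synthase, differed between the late and the early stage of the Gata3 experiment by -0.64 ± 0.19 on the log2 scale (edgeR's interaction test, adjusted p = 0.0477). It had 147 and 174 CPM in late KO cells, 179 and 172 CPM in late WT cells, 292 and 239 CPM in early KO cells and 181 and 190.0 CPM in early WT cells. The call was lost without any of 6 of the 8 libraries, all but early KO replicate 2 and late KO replicate 2, at adjusted p from 0.0843 to 0.184. No cause was tested.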

How the results depend on the processing

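Leaving out 1 library at a time gave 9 to 13 members called in the early and 0 to 3 in the late Bcl11b KO comparison, 0 to 2 for their difference, 13 to 17 between late and early WT cells and 11 to 16 between late and early KO cells. In the Gata3 experiment these were 4 to 10, 1 to 3, 0 to 2, 0 to 0 and 2 to 5. Fits on only the 4 libraries compared gave 8 for the early Bcl11b KO effect (1030 of 10873 genes) and 8 for the late one (1816 of 10873). They gave 1 for the late Gata3 KO effect (1137 of 10601) and 3 between late and early Gata3 KO cells (2380 of 10601). Background subtraction gave 0 for the late Bcl11b KO effect, where 148 of 10873 genes passed. With no filter the Elovl6 call between late and early Bcl11b WT cells was lost (edgeR adjusted p = 0.146). So was the Fdft1 call between late and early Bcl11b KO cells (0.0829). For the stage difference in the Bcl11b experiment, DESeq2 gave 5 (902 of 10873 genes) and limma 15 (6087 of 10873). In the Gata3 experiment DESeq2 gave 2 (1341 of 10601 genes), no filter 3 (1806 of 16268) and limma 0 (1241 of 10601). Under limma on log2(RPKM + 1), signs turned in the early Bcl11b KO effect for Acat2 (0.39), Acly (0.18), Fdft1 (0.40), Hsd17b7 (0.34), Insig1 (0.22) and Srebf2 (0.24), and between late and early WT cells for Elovl6 (0.68), Fdft1 (0.18), Lss (0.61) and Mvd (0.11); the median of all genes moved to 0.86 and 1.04 there. With the replicate number as a block, 20 members were called in early and 13 in late Gata3 KO cells, 5 for their difference and 12 between late and early Gata3 KO cells, against 0 for the late Bcl11b KO effect and counts within 1 of the unblocked ones elsewhere. Of 853 further values of single members, 716 kept their direction and side of the threshold, 127 fell short of it and 10 changed sign. With peaks of at least 10-fold enrichment only, 0 members had a Bcl11b and 1 a GATA3 peak, and the shortened sterol element was in 3 promoters, against 1 with the whole one. Causes were not tested. Depth limits the members of few reads, such as Fads2, and 2 libraries per group limit every test.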
